A study of Mus musculus with 2 samples.

Results

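The genes described here encode the cyclins and kinases that carry a dividing cell through S phase and into mitosis: the E cyclins Ccne1 and Ccne2, the A cyclin Ccna2, the B cyclins Ccnb1 and Ccnb2, the kinases Cdk1 and Cdk2, and the phosphatases Cdc25a, Cdc25b and Cdc25c. They were chosen by symbol, and all 10 were found among the 27998 genes of the count tables. The material was peripheral retina of mice at postnatal day 8, where the alphaCre driver is active, profiled by droplet-based 3′ single-cell RNA sequencing with 1 library per genotype. DKO_Skp2het carried alphaCre, Rb f/f and p107-/- together with Skp2+/-, and is labelled tumor-resistant. DKO carried alphaCre, Rb f/f and p107-/- with Skp2 intact, and is labelled tumor-prone. Rb was thus lost only where alphaCre acts, and p107 in every cell of both groups. The number of animals behind each library is not given in the sources used here, and the difference between genotypes cannot be told apart from a difference between libraries.

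Cyclins are the regulatory subunits that switch on cyclin-dependent kinases, and each type accumulates in its own window of the cycle. Cyclin E with Cdk2 drives entry into S phase, cyclin A accompanies S phase and G2, and cyclin B with Cdk1 triggers mitosis. The Cdc25 phosphatases remove the inhibitory phosphates from these kinases, with Cdc25a acting from G1 and S phase on and Cdc25b and Cdc25c around mitotic entry. Rb and p107 restrain E2F factors, which transcribe many S phase genes, and Skp2 recruits proteins such as the kinase inhibitor p27 for destruction. In normal mouse retina most progenitors have left the cycle by the end of the first postnatal week.

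The DKO_Skp2het library kept 4978 cells, at a median of 3799 UMIs and no fewer than 2387, and the DKO library kept 3515, at a median of 4866 and no fewer than 3420. A UMI is the tag that marks a captured transcript. In the DKO_Skp2het library 38.1% of the kept cells lay below the DKO minimum, and 30 barcodes occurred in both libraries. Skp2, the gene that separates the genotypes, stood at 64.9 CPM in DKO_Skp2het and 94.0 CPM in DKO over the positioned cells defined below, a ratio of 0.691 (95% interval 0.641 to 0.743). CPM is the UMIs of a gene per 1000000 UMIs of all genes, summed over the cells named. A 3′ tag does not show which exons of an allele remain. With 1 library per genotype no test is possible, so no p-value is given. All intervals are exact 95% intervals that cover counting error only and treat UMIs as independent.

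Each cell was placed along the cycle by genes other than the 10 described here. After every cell was thinned to 1500 UMIs, the UMIs of 42 S phase genes and 51 G2 and M phase genes were counted, and the position was the G2M share of their sum, near 0 in S-rich cells and 1 in G2M-rich cells. Cells with at least 8 such UMIs were positioned. These were 77.9% of DKO_Skp2het cells (3879 of 4978, interval 76.7 to 79.1) and 82.4% of DKO cells (2897 of 3515, interval 81.1 to 83.7). Positioned cells of both libraries together were cut into 6 bins of about equal size at G2M shares of 0.436, 0.545, 0.647, 0.765 and 0.895, and the remaining cells formed a low bin. Genes outside the lists were looked at along the axis. The mitotic genes Plk1, Prc1 and Sgol2a were highest in bin 6 of both libraries, whereas S phase genes did not share a bin. Mcm3, a subunit of the replicative helicase, stood at 87.6 CPM in bin 1 and 12.9 CPM in bin 6 of DKO_Skp2het, and at 69.6 and 15.5 CPM in the same bins of DKO. Plk1, a mitotic kinase, stood at 3.397 and 181 CPM in these bins of DKO_Skp2het and at 1.08 and 143 CPM in DKO. Mcm7, another helicase subunit, was highest in bin 4 of both, at 183 CPM in DKO_Skp2het and 180 CPM in DKO. Hist1h2ap, a histone of DNA replication, was highest in bin 5 of DKO_Skp2het at 505 CPM and in bin 4 of DKO at 721 CPM. Transcripts of S phase therefore reach well into the middle of this axis. The position does not separate late G1 from early S phase, and cells of low list content include quiescent cells as well as cells in G1.

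The libraries filled the bins differently. Of positioned DKO_Skp2het cells 19.8%, 17.9%, 17.7%, 15.7%, 13.8% and 15.0% lay in bins 1 to 6, and of positioned DKO cells 12.5%, 14.2%, 15.4%, 18.4%, 20.4% and 19.2%. The DKO_Skp2het library thus held a larger share of its positioned cells in bins 1 to 3 and a smaller share in bins 4 to 6, with intervals that do not meet in bins 1, 2, 4, 5 and 6. Depth moved with this axis too: the median was 3368 UMIs per cell in bin 1 and 4629 in bin 6 of DKO_Skp2het, and 4229 and 4894 in DKO. The part of depth in the bin shares was not tested beyond the thinning.

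**Figure D1:**
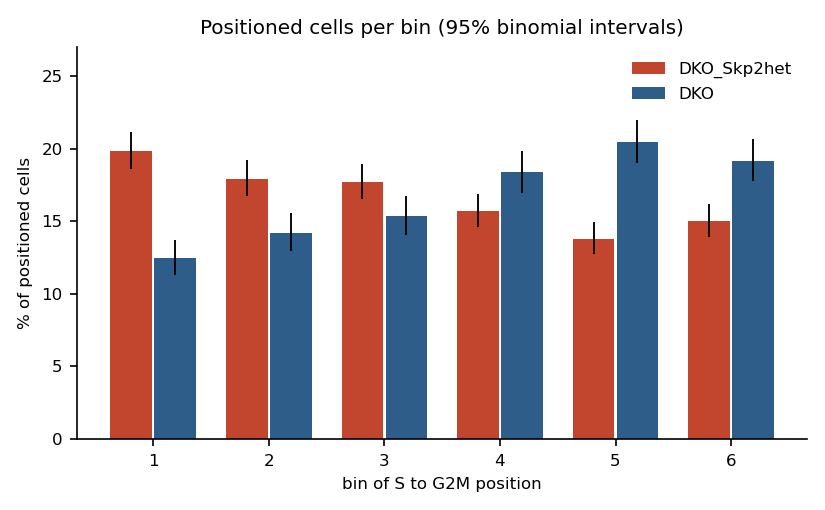
Share of positioned cells (percent, vertical axis) in each of the 6 position bins (horizontal axis), with DKO_Skp2het left of DKO in each pair and exact 95% binomial intervals. Bin 1 holds 19.8% of DKO_Skp2het and 12.5% of DKO cells, and bin 5 holds 13.8% and 20.4%.

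The E cyclins, Cdk2 and Cdc25a formed an early group, highest within bins 2 to 4 and lowest in bin 6. Ccne1, a cyclin of S phase entry, had 91.7, 95.1, 111, 108, 68.4 and 17.0 CPM in bins 1 to 6 of DKO_Skp2het. In DKO it had 79.3, 74.5, 87.2, 83.0, 53.2 and 17.3 CPM. It was highest in bin 3 of both libraries, and the fall between bins 5 and 6 was the steepest step, with a ratio of 0.248 (0.180 to 0.337) in DKO_Skp2het. Ccne2, its paralog, had 134, 174, 208, 202, 90.8 and 16.7 CPM in DKO_Skp2het and 115, 158, 197, 195, 103 and 18.5 CPM in DKO. It climbed over bins 1 to 3, with bin 2 over bin 1 at 1.30 (1.14 to 1.49) and bin 3 over bin 2 at 1.20 (1.06 to 1.35) in DKO_Skp2het, and at 1.37 (1.16 to 1.63) and 1.253 (1.10 to 1.43) in DKO. Bins 3 and 4 did not differ beyond counting error in DKO_Skp2het, with a ratio of bin 4 over bin 3 of 0.969 (0.869 to 1.08).

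Cdk2, the kinase partner of cyclins E and A, varied less than its cyclins. It had 69.3, 86.8, 85.3, 72.6, 56.6 and 25.2 CPM in bins 1 to 6 of DKO_Skp2het and 61.0, 73.7, 66.4, 70.1, 53.4 and 24.1 CPM in DKO, with the highest level in bin 2 of both. Cdc25a, the phosphatase that acts earliest, had 44.2, 58.8, 50.6, 49.9, 36.7 and 22.3 CPM in DKO_Skp2het and 40.5, 46.9, 49.0, 53.1, 41.4 and 20.8 CPM in DKO. It was highest in bin 2 of DKO_Skp2het and bin 4 of DKO. Bin 2 over bin 1 stood at 1.33 (1.05 to 1.69) in DKO_Skp2het. The other steps over bins 1 to 4 had intervals that include 1 in both libraries. In the low bin the 4 early genes stood between 10.9 and 11.8 CPM in DKO_Skp2het and between 7.33 and 14.2 CPM in DKO, below every positioned bin of the same gene.

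**Figure D2:**
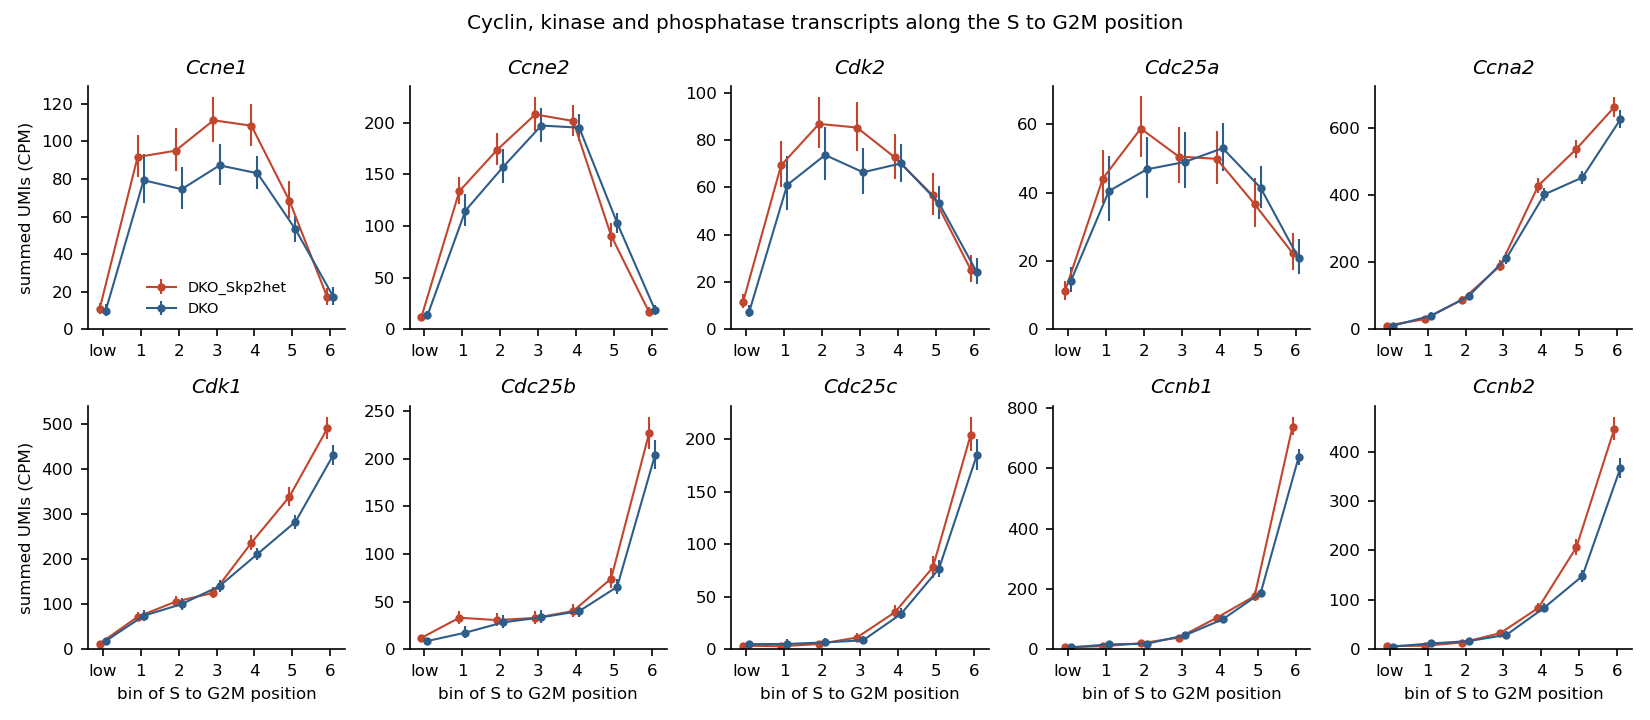
Summed UMIs in CPM (vertical axes, linear from 0, a scale for each gene) in the low bin and bins 1 to 6 of the S to G2M position (horizontal axes), with DKO_Skp2het in red and DKO in blue and exact 95% Poisson intervals. Ccne1, Ccne2, Cdk2 and Cdc25a are highest in bins 2 to 4 and lowest of the 6 bins in bin 6, and the other 6 genes are highest in bin 6 of both libraries.

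The other 6 genes were highest in bin 6 of both libraries, but they climbed at different points. Ccna2, the cyclin of S phase and G2, climbed through the whole axis, with 29.9, 88.6, 190, 429, 537 and 662 CPM in bins 1 to 6 of DKO_Skp2het and 39.9, 98.4, 212, 402, 453 and 626 CPM in DKO. It passed 50% of its highest level in bin 4 of both. Cdk1, the mitotic kinase, started from a higher base, with 71.7, 105, 125, 236, 338 and 489 CPM in DKO_Skp2het and 73.9, 99.7, 140, 211, 282 and 431 CPM in DKO. It passed 50% of its highest level in bin 5. Cdk1 thus made up 50.8% of the summed Cdk1 and Cdk2 UMIs in bin 1 and 95.1% in bin 6 of DKO_Skp2het, and 54.8% and 94.7% in these bins of DKO. A 3′ UMI counts a molecule whatever its length, but genes can differ in capture, so such shares are compared between bins and libraries only.

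The B cyclins, which bind Cdk1 at mitotic entry, were concentrated at the end of the axis. Ccnb1 had 9.51, 19.1, 37.9, 104, 176 and 738 CPM in bins 1 to 6 of DKO_Skp2het and 15.7, 17.9, 45.5, 98.7, 186 and 636 CPM in DKO. The last step was its largest, with bin 6 over bin 5 at 4.20 (3.82 to 4.64) in DKO_Skp2het. Of its UMIs in positioned cells 69.2% lay in bin 6 of DKO_Skp2het and 59.6% in bin 6 of DKO. Ccnb2 climbed more evenly, with 6.79, 13.3, 32.4, 83.5, 206 and 446 CPM in DKO_Skp2het and 11.3, 16.2, 28.9, 84.2, 148 and 367 CPM in DKO. Reads of Ccnb1 are less certain than those of Ccnb2, because stretches near its 3′ end are at least 95.6% identical to 5 annotated pseudogenes, which have no rows of their own in the count tables.

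Of the mitotic phosphatases, Cdc25c resembled the B cyclins, and Cdc25b started from a higher base. Bins 1 to 3 held 21.2% of Cdc25b UMIs of positioned cells in DKO_Skp2het and 14.5% in DKO, against 5.36% and 4.17% for Cdc25c. Cdc25c had 2.72, 4.79, 11.03, 35.1, 77.9 and 205 CPM in bins 1 to 6 of DKO_Skp2het and 4.86, 6.39, 8.34, 33.5, 76.5 and 185 CPM in DKO. Cdc25b climbed little over bins 1 to 4 of DKO_Skp2het and had its largest step between bins 5 and 6, with 32.9, 30.4, 32.8, 39.95, 74.0 and 227 CPM in DKO_Skp2het and 17.3, 28.1, 33.4, 39.9, 65.4 and 204 CPM in DKO. Like Ccnb1 and Ccnb2, both passed 50% of their highest level in bin 6 only. In the low bin the 6 late genes were each seen in 0.455% to 2.46% of DKO_Skp2het cells and 0.324% to 1.94% of DKO cells at 1500 UMIs. Ccna2 was seen in 1.18% of low-bin cells of DKO_Skp2het and 1.13% of DKO at 1500 UMIs (5.28% and 6.15% unthinned), against 58.4% and 61.1% in bin 6 (89.2% and 91.2% unthinned). Microglia-like cells, none of which were positioned, had a Ccna2 UMI in 1 of 41 DKO_Skp2het cells and 0 of 30 DKO cells at 1500 UMIs (4.88% and 3.33% unthinned). Of the other late genes Ccnb2 and Cdk1 each had a UMI in 3 of these 41 cells at 1500 UMIs. None of the 6 was seen in the 30 at that depth. Whether microglia-like cells carry these transcripts themselves was not tested, so they set no background level. Low shares are therefore not read as expression. Unthinned, Cdk1 had a UMI in 26.8% of the 41 and 13.3% of the 30, and Ccnb2 in 7.32% and 3.33%. By a limit of 3 counts the 0 of 30 allows a share of cells with a UMI at 1500 UMIs of up to 10.0%. The median unthinned depths were 7519 UMIs in DKO_Skp2het and 9424 in DKO.

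Mean positions put the 10 genes in nearly the same order in both libraries. The mean G2M share at which a gene's UMIs were found was, in DKO_Skp2het, 0.596 for Ccne2, 0.600 for Ccne1, 0.604 for Cdk2, 0.614 for Cdc25a, 0.783 for Cdk1, 0.7997 for Ccna2, 0.811 for Cdc25b, 0.870 for Ccnb2, 0.879 for Cdc25c and 0.887 for Ccnb1. In DKO it was 0.644 for Ccne1, 0.647 for Ccne2, 0.658 for Cdk2, 0.671 for Cdc25a, 0.789 for Cdk1, 0.798 for Ccna2, 0.831 for Cdc25b, 0.857 for Ccnb2, 0.867 for Cdc25c and 0.874 for Ccnb1. Ccne1 and Ccne2 exchanged places, and the other 8 genes held the same rank. The wide gap in both libraries lay between Cdc25a and Cdk1. The 4 early genes sat further toward S phase in DKO_Skp2het and the 3 latest further toward G2M, and these means also carry the unequal filling of the bins. With every bin given the same weight, an alternative chosen after seeing the data, 8 genes again held the same rank, and the peak bin was the same in both libraries for 9 of 10 genes.

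**Figure D3:**
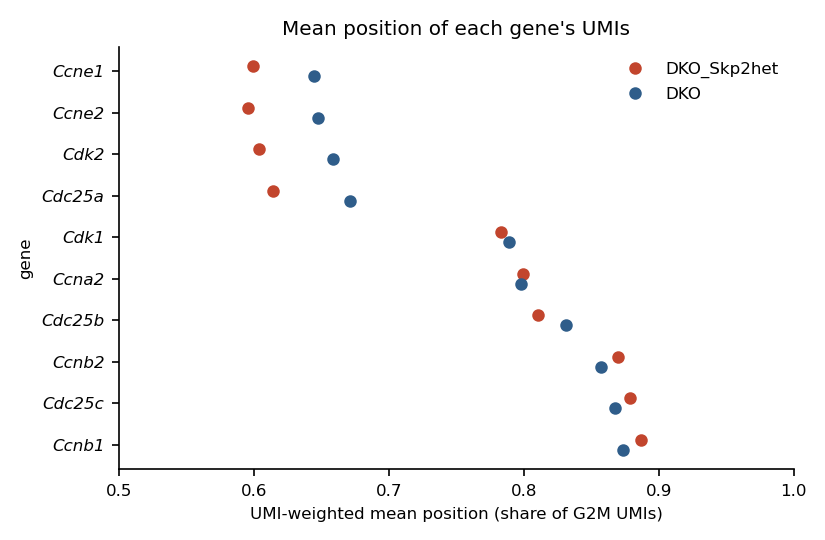
UMI-weighted mean position (G2M share of the S and G2M list UMIs, horizontal axis from 0.5 to 1) of each gene (rows, from earliest at the top to latest), with DKO_Skp2het in red above DKO in blue. The 4 early genes lie between 0.596 and 0.671, and the other 6 between 0.783 and 0.887.

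Promoter sequence was looked at because these genes moved as an early and a late group. RefSeq promoter windows of GRCm38.p6 were used for 7 of the 10 genes. Ccne2 and Ccna2 had no window, and Cdc25c was left out of the search. The 150 bases before the start were searched on both strands for the CCAAT box (CCAAT), the cell cycle homology region CHR (TTTGAA or TTCGAA) and E2F-like sites (TTTCGCGC, TTTGGCGC, TTTCCCGC or TTCCCGCC). Of all 32851 windows of this length 24.5% held a CCAAT box, 9.70% a CHR and 2.03% an E2F-like site. The following are shown because their genes lie on both sides of the gap in the order, Ccnb2 and Cdk1 late and Cdk2 and Cdc25a early, 5′ to 3′ on the gene's strand and ending at the base before the RefSeq start, with motif matches on either strand in capitals.
Ccnb2: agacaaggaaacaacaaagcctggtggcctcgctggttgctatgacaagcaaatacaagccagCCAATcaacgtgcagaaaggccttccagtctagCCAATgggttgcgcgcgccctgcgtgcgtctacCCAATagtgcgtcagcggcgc
Cdk1: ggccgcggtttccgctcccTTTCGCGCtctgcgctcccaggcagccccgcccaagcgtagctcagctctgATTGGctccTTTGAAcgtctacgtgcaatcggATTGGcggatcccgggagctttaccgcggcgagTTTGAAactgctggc
Cdk2: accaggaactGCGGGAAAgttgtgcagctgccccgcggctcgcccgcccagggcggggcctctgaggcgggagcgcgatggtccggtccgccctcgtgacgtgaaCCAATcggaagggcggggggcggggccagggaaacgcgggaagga
Cdc25a: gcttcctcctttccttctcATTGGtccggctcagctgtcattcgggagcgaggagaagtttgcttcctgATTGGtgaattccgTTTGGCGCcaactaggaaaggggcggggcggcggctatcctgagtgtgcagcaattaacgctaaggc
The Ccnb2 window lies at chr9:70421555-70421704 on the minus strand and holds 3 CCAAT boxes in the same orientation, which begin 87, 54 and 21 bases before the start. The Cdk1 window lies at chr10:69352913-69353062 on the minus strand and holds an E2F-like site 131 bases, a CHR 71 and 15 bases, and a reversed CCAAT box 80 and 48 bases before the start. The Cdk2 window, at chr10:128705052-128705201 on the minus strand, has a reversed E2F-like site 140 bases and a CCAAT box 45 bases before the start. The Cdc25a window, at chr9:109875429-109875578 on the plus strand, has reversed CCAAT boxes 131 and 81 bases and an E2F-like site 67 bases before the start. Ccnb1 had 2 CCAAT boxes, Cdc25b had 1, and Ccne1 had no match to any of these letters. The motifs do not overlap in these windows, and a match is a description and not a site. The RefSeq starts are not always GENCODE starts. The sequence that follows the RefSeq start of Ccnb2, Cdk2 and Cdc25b was not found in a GENCODE transcript of the gene. The Cdk1 gene of GENCODE ends at chr10:69352938, inside the Cdk1 window, so the CHR 15 bases before the RefSeq start lies within that gene.

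In GENCODE M21 annotation of GRCm38 the genes are protein-coding and lie apart from each other. Ccne1 (ENSMUSG00000002068) spans chr7:38097984-38107534 and Ccne2 (ENSMUSG00000028212) chr4:11191351-11204779. Ccna2 (ENSMUSG00000027715) spans chr3:36564865-36572150, Ccnb1 (ENSMUSG00000041431) chr13:100778650-100786570 and Ccnb2 (ENSMUSG00000032218) chr9:70407692-70421547. Cdk1 (ENSMUSG00000019942) spans chr10:69335146-69352938 and Cdk2 (ENSMUSG00000025358) chr10:128697939-128705031. Cdc25a (ENSMUSG00000032477) spans chr9:109875579-109893895 and Cdc25b (ENSMUSG00000027330) chr2:131186949-131198497, and Cdc25c (ENSMUSG00000044201) lies on chromosome 18.

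Within cells, E and B cyclins were seen together less often than Ccna2 and a B cyclin. No rate of joint detection was computed from the separate shares, so these values do not show which types prefer each other. In positioned cells thinned to 1500 UMIs, 16.2% of DKO_Skp2het cells and 12.5% of DKO cells had cyclin E UMIs alone, at median positions of 0.533 and 0.562. Cells with an E cyclin and Ccna2 but no B cyclin made up 4.23% and 4.45%, at 0.655 and 0.694. Cells with Ccna2 alone made up 10.4% and 12.3%, at 0.785 and 0.8. Cells with Ccna2 and a B cyclin but no E cyclin made up 10.0% and 13.4%, at 0.921 and 0.914, and cells with a B cyclin alone 7.71% and 9.35%, at 0.884 and 0.895. Of the cells with a B cyclin, 451 of 798 in DKO_Skp2het (56.5%, 53.0 to 60.0) and 456 of 775 in DKO (58.8%, 55.3 to 62.3) also had Ccna2. A UMI of an E cyclin beside a B cyclin without Ccna2 occurred in 1.24% of DKO_Skp2het and 1.66% of DKO cells, and all 3 types together in 1.60% and 2.31%. No cyclin of the 3 types was seen in 48.6% and 44.0%, which at 1500 UMIs per cell does not show that the transcripts are absent. Summed over positioned cells, the ratio of E to B cyclin UMIs was 0.690 (0.662 to 0.718) in DKO_Skp2het and 0.626 (0.601 to 0.652) in DKO. It was 13.8 and 7.20 in bin 1, 1.66 and 1.52 in bin 4, and 0.0284 and 0.0357 in bin 6.

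Between the libraries, Ccne1 was higher in DKO_Skp2het. Over all kept cells it had 65.3 CPM in DKO_Skp2het and 54.2 CPM in DKO, a ratio of 1.21 (1.12 to 1.30). Over positioned cells it had 81.9 CPM in DKO_Skp2het and 63.9 CPM in DKO, a ratio of 1.28 (1.19 to 1.38), or 0.34 on the log2 scale of CPM plus 5. A gene is counted below as past the fold limits where its DKO_Skp2het level was more than 25% above or more than 20% below that of DKO, among genes with at least 100 UMIs in the libraries together. Ccne1 was the only member past them here. Of all 11662 genes tested 10.5% were past the upper limit and 19.5% past either, so 1 of 10 is no more than the background. With equal cluster make-up in both libraries, an alternative chosen after seeing the data, the Ccne1 ratio was 1.18, and with thinned counts 1.23, both short of the upper limit. The cause of the lower values was not tested.

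The other early genes were nearer to 1. Over positioned cells Cdk2 had 65.7 CPM in DKO_Skp2het and 57.2 CPM in DKO (ratio 1.15, 1.06 to 1.248), Ccne2 138 and 131 CPM (1.05, 0.996 to 1.11), and Cdc25a 43.7 and 42.2 CPM (1.04, 0.938 to 1.14). With equal cluster make-up the Cdk2 ratio was 0.999, so its difference was not seen there. Ccne2 made up 62.7% of E cyclin UMIs (61.2 to 64.2) in DKO_Skp2het and 67.2% (65.7 to 68.7) in DKO. Of the late genes, Ccna2 had 328 CPM in DKO_Skp2het and 352 CPM in DKO (0.930, 0.898 to 0.963; 1.09 with equal cluster make-up) and Ccnb2 133 and 125 CPM (1.07, 1.01 to 1.13). Cdk1, Ccnb1, Cdc25b and Cdc25c had ratios of 1.01, 0.992, 1.06 and 0.951, with intervals that include 1. The median log2 difference of the 10 genes was 0.058, beside 0.016 over all genes tested. Over all kept cells it was -0.028 beside 0.020, no member was past the fold limits, and 15.2% of the 12413 genes were. With thinned counts Ccna2 (ratio 0.780) and Ccnb1 (0.765) were past the lower limit over all kept cells.

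The direction of the late genes turned with how depth was handled. Over positioned cells with every cell thinned to 1500 UMIs, the log2 differences were -0.28 for Ccna2, -0.30 for Ccnb1, -0.20 for Ccnb2, -0.23 for Cdk1 and -0.22 for Cdc25b. Keeping only cells with at least 3420 UMIs, they were 0.10, 0.24, 0.29, 0.20 and 0.21. Ccne1 was above 0 under both, at 0.28 and 0.39. No direction between the libraries is therefore given for the summed levels of the late genes.

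At matched position, Ccne1 stood at ratios of 1.16, 1.28, 1.28, 1.30, 1.29 and 0.984 in bins 1 to 6, and the interval lay above 1 in bins 2 to 5. In bins 2 to 5 it was past the upper fold limit. Of all genes tested 14.4%, 10.2%, 11.2%, 10.6%, 10.8% and 10.3% were past that limit in bins 1 to 6, and of the members 1 of 7, 2 of 7, 2 of 9, 1 of 10, 2 of 10 and 0 of 10. Past the lower limit was Ccna2 in bin 1 (0.748, 0.543 to 1.03), where 12.5% of all genes were. Cdk2 was above 1 in all 6 bins, with an interval above 1 in bin 3 (1.28, 1.06 to 1.56). Ccne2 and Cdc25a had ratios between 0.882 and 1.26 with intervals that include 1 in every bin.

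The ratios of the late genes in the last bins were not alike. Ccnb2 had 206 CPM in bin 5 of DKO_Skp2het and 148 CPM in DKO, a ratio of 1.39 (1.24 to 1.56), and 446 and 367 CPM in bin 6, a ratio of 1.22 (1.13 to 1.31). Ccnb1 stood at 0.946 (0.845 to 1.06) in bin 5 and 1.16 (1.09 to 1.23) in bin 6. Accordingly Ccnb2 made up 54.0% of B cyclin UMIs in bin 5 of DKO_Skp2het (51.0 to 57.0) and 44.4% in DKO (41.8 to 46.9), while the shares in bin 6 were 37.7% and 36.6%. Cdk1 stood at 1.12, 1.20 and 1.14 in bins 4, 5 and 6 with intervals above 1, and Ccna2 at 1.19 (1.11 to 1.27) in bin 5. Cdc25c had no bin whose interval excludes 1. Cdc25b was higher in bin 1, at 32.9 CPM in DKO_Skp2het and 17.3 CPM in DKO (1.91, 1.27 to 2.94), on 97 and 32 UMIs. No member had an interval below 1 in any of bins 1 to 6. Over the tested members the median log2 difference per bin ran from 0.042 in bin 3 to 0.17 in bin 1, beside 0.012 to 0.032 over all genes tested in the bins. With thinned counts the median over bins was 0.19 for Ccne1 (0.33 unthinned), 0.088 for Ccnb2 (0.067), 0.016 for Cdk1 (0.11) and -0.11 for Ccna2 (-0.031). It was -0.030 for Cdc25b (0.12) and -0.092 for Cdc25c (0.042), which changed sign. The differences within bins therefore also moved with the handling of depth, that of Ccne1 included, which kept its sign.

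**Figure D4:**
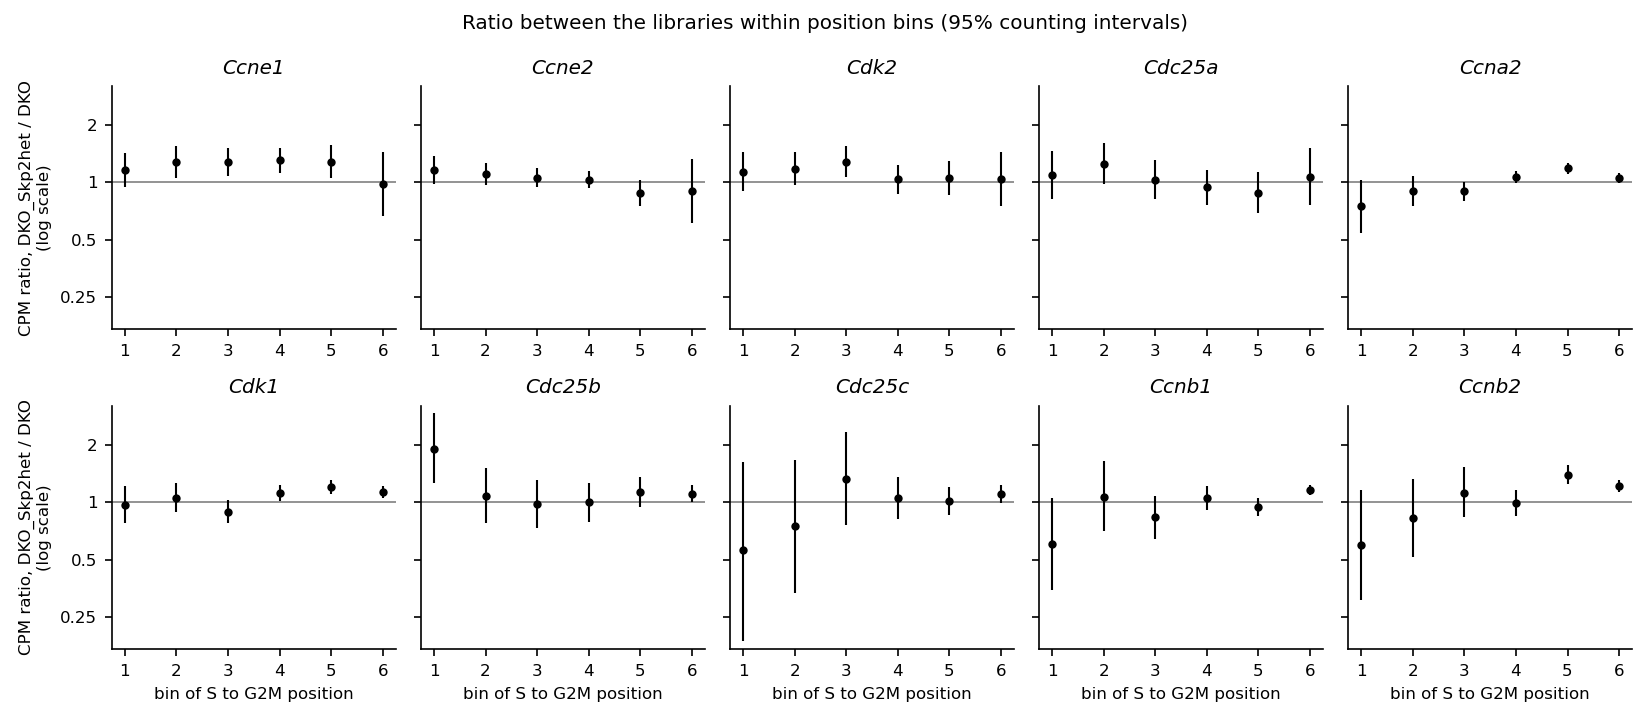
Ratio of CPM in DKO_Skp2het over DKO (vertical axes, log scale) for each gene in bins 1 to 6 of the S to G2M position (horizontal axes), with exact 95% conditional intervals that cover counting error. Ccne1 stands at 1.28 to 1.30 in bins 2 to 5, Ccnb2 at 1.39 in bin 5, and Cdc25b at 1.91 in bin 1.

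Cell classes were found by clustering both libraries together without the 10 genes and the S and G2M lists. Other cycle genes, such as Plk1, were not left out. A class was named only where its markers led it. Müller glia-like cells (clusters 3 and 17) numbered 622 in DKO_Skp2het and 421 in DKO, of which 85.0% and 90.7% were positioned. They sat early, with 358 of 529 positioned DKO_Skp2het cells and 250 of 382 DKO cells in bins 1 and 2, and 15 and 12 in bins 5 and 6. Neurogenic progenitor-like cells (cluster 5) numbered 367 and 308, all were positioned, and 283 and 242 of them lay in bins 5 and 6. Unnamed cluster 4 had the same best-matching type, at a mean log2 fold of 0.453. It held 267 DKO_Skp2het and 75 DKO cells in bins 1 and 2, and 23 and 9 in bins 5 and 6. Unnamed cluster 21, also with this best match, was led by Tuba1c and Ccnb1. The levels of the genes followed the positions of the named classes, and a trait of cell type cannot be told apart from position here. Ccnb1 was at 11.7 CPM in Müller glia-like cells of DKO_Skp2het and 15.2 CPM of DKO. In neurogenic progenitor-like cells it was at 288 and 338 CPM. Ccne1, conversely, was at 104 and 106 CPM in Müller glia-like cells and at 61.1 and 49.9 CPM in neurogenic progenitor-like cells.

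Within classes the position of the highest level was compared. Positions were merged into early (bins 1 and 2), middle (3 and 4) and late (5 and 6). A position was used where both libraries had at least 10 cells in it, a gene where both had at least 20 UMIs, and a class only where its late position could be used, which left 8 classes. In 4 of them (neurogenic progenitor-like cells and clusters 2, 8 and 12) only the middle and late positions could be compared. Ccnb1 was highest in the late position in 8 of 8 classes of DKO_Skp2het and 8 of 8 of DKO, Cdc25c in 6 of 6 and 6 of 6, and Cdc25b in 8 of 8 and 7 of 8. Ccnb2 was highest there in 6 of 7 and 7 of 7, the exception being the middle position of cluster 11. Ccna2 was highest late in 8 of 8 classes of DKO_Skp2het and 5 of 8 of DKO, and Cdk1 in 7 of 8 and 5 of 8, otherwise in the middle. Ccne2 and Cdc25a were highest before the late position in 8 of 8 classes of both libraries, Cdk2 in 7 of 8 of both, and Ccne1 in 7 of 8 of DKO_Skp2het and 8 of 8 of DKO. In neurogenic progenitor-like cells Ccna2 had 549 CPM in the middle and 614 CPM in the late position of DKO_Skp2het. In DKO it had 574 and 581 CPM. The steep climb over all positioned cells was thus not seen between these positions of cluster 5. This cluster held 0 DKO_Skp2het and 3 DKO cells in the early position. Ccnb1 there had 135 and 337 CPM in DKO_Skp2het and 114 and 401 CPM in DKO.

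Between the libraries the named classes are given in turn. In Müller glia-like cells 7 members had at least 100 UMIs, with a median log2 difference of -0.030 (0.043 over all genes tested in the class), and none was past the fold limits, against 18% of all genes. In neurogenic progenitor-like cells the median was 0.062 (0.029 over all genes), and none of 10 was past the limits, against 16.4%. Under other clusterings, or with doublets kept, this median ran from 0.11 to 0.29, over 6 to 10 tested members. Ccnb1 was the only member there whose interval excludes 1, at 288 CPM in DKO_Skp2het and 338 CPM in DKO (0.851, 0.749 to 0.966), while Ccnb2 stood at 283 and 253 CPM (1.12, 0.975 to 1.29). The median depths of this class were 4114 UMIs per cell in DKO_Skp2het and 4364 in DKO.

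Immature inhibitory neuron-like cells (clusters 7 and 9, with 299 and 226 DKO_Skp2het and 280 and 160 DKO cells) had fewer positioned cells in DKO_Skp2het. The share positioned was 41.3% in DKO_Skp2het (37.1 to 45.7) and 68.9% in DKO (64.3 to 73.2). All 9 members tested were lower, with a median log2 difference of -0.44 beside 0.011 over all genes, and 6 of 9 were past the lower limit, against 10.3% of all genes in the class. With cell cycle genes in the clustering the median was -0.25, over the 5 members tested there. With doublets kept it was -0.315 over 9 members. Both are short of the lower limit on the log2 scale. Ccnb1 had 38.6 CPM in DKO_Skp2het and 75.2 CPM in DKO (0.513, 0.396 to 0.659), Ccna2 48.4 and 89.5 CPM (0.541, 0.429 to 0.678), Ccnb2 20.6 and 35.7 CPM (0.577, 0.400 to 0.822), Cdc25c 13.3 and 32.1 CPM (0.414, 0.266 to 0.629) and Cdk1 51.4 and 71.3 CPM (0.721, 0.570 to 0.909). Ccne1, Ccne2, Cdc25a and Cdc25b had intervals that include 1. Among the late-position cells of this class, 33 in DKO_Skp2het and 48 in DKO, Ccnb1 was at 224 and 414 CPM (0.542, 0.389 to 0.742), and Cdk1 at 246 and 190 CPM (1.29, 0.903 to 1.84). At earlier positions Ccnb1 was not lower, at 1.96 (0.824 to 4.70) in the early and 1.62 (0.761 to 3.41) in the middle position on 12 to 18 UMIs per library. Ccne2 in the early position was at 92.7 CPM in DKO_Skp2het and 52.5 CPM in DKO (1.77, 1.13 to 2.75). The medians of 3565 and 4586 UMIs per cell moved the same way as these levels, and their part in the result was not tested.

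In rod-like cells (212 and 159 cells) 27.4% and 46.5% were positioned. Of the 3 members tested, Ccna2 had 26.1 CPM in DKO_Skp2het and 71.9 CPM in DKO (0.363, 0.238 to 0.540), Cdk1 28.4 and 59.0 CPM (0.481, 0.317 to 0.718) and Ccne2 38.4 and 46.8 CPM (0.820, 0.556 to 1.20). Ccna2 and Cdk1 were past the lower limit, as were 10.2% of all genes in the class, and the median depths were 4400 and 6714 UMIs. With doublets kept, the median log2 difference over rod-like cells was -0.14 over 4 tested members, in place of -0.94 over 3. Bipolar-like cells were positioned in 9.27% of 205 DKO_Skp2het and 23.5% of 119 DKO cells, cone-like cells in 3.39% of 59 and 31.6% of 38, and amacrine-like cells in 18.6% of 102 and 20.2% of 114. No member reached 100 UMIs in these 3 classes.

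Unnamed clusters held most of the cells. Cluster 6, led by Fabp7 and Rgr, was fully positioned in both libraries (448 and 208 cells), and all 6 members tested were higher, 4 of them past the upper limit, against 11% of all genes in it. Ccne1 had 105 CPM in DKO_Skp2het and 71.8 CPM in DKO (1.47, 1.15 to 1.89), Ccne2 258 and 200 CPM (1.29, 1.11 to 1.501) and Cdk2 116 and 90.1 CPM (1.29, 1.03 to 1.62), at median depths of 3446 and 5236 UMIs. Cluster 8, led by Epha8 and Foxn4, had Ccne1 at 92.9 and 61.0 CPM (1.52, 1.19 to 1.94) and Ccne2 at 171 and 133 CPM (1.29, 1.08 to 1.54), both past the upper limit with 10.9% of all genes. Cluster 1, led by Hes5, with 758 DKO_Skp2het and 225 DKO cells, had Ccne1 at 64.1 and 70.1 CPM (0.915, 0.682 to 1.24) and Cdk1 at 46.9 and 79.7 CPM (0.589, 0.437 to 0.797), with Cdk1 past the lower limit as were 7.17% of all genes. Over the 10 classes and clusters with enough UMIs, Ccne1 was above 1 in 6, with an interval above 1 in 3 and below 1 in none. Ccne2 was above 1 in 3 of 11, Cdk2 in 4 of 9 and Cdc25a in 2 of 10. Their intervals lay above 1 in 2, 1 and 0 of these and below 1 in none. The make-up of the positioned cells differed too: cluster 1 made up 18.1% of them in DKO_Skp2het and 7.49% in DKO, and cluster 2, led by Tagln2, 12.01% and 17.6%.

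**Figure D5:**
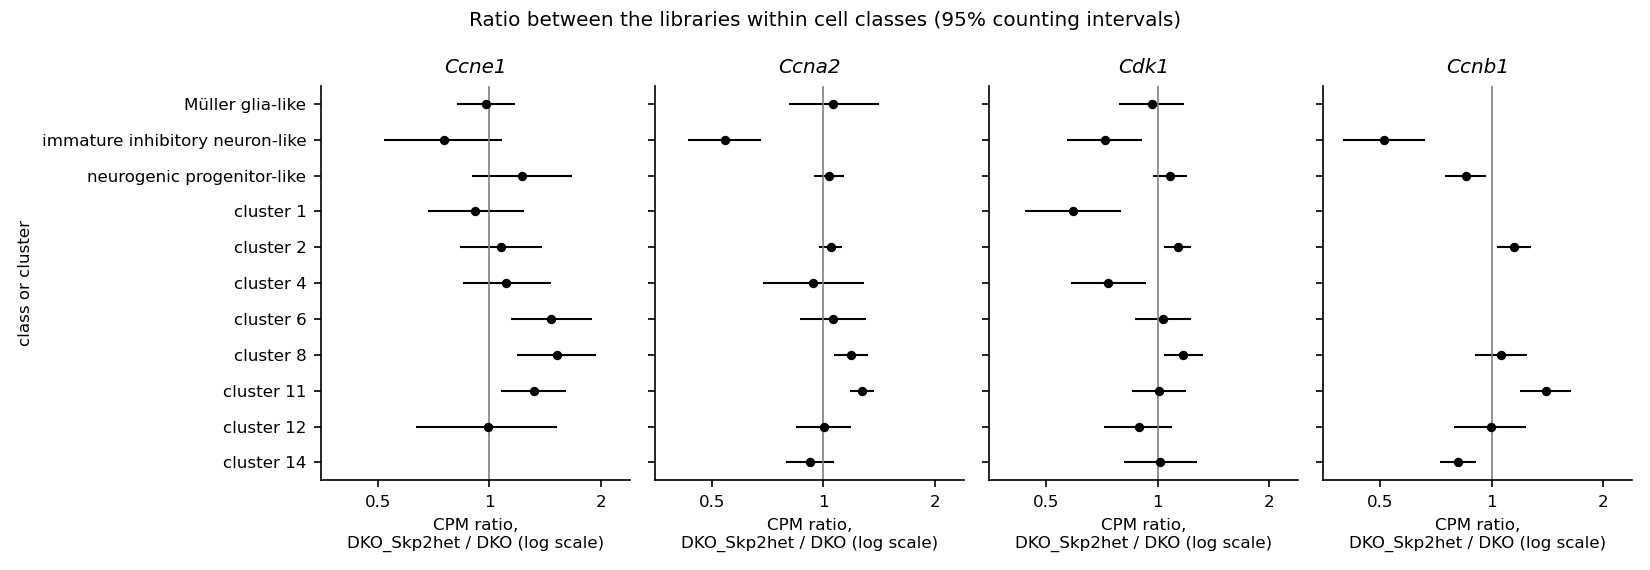
Ratio of CPM in DKO_Skp2het over DKO (horizontal axes, log scale) of Ccne1, Ccna2, Cdk1 and Ccnb1 in each class or unnamed cluster with at least 6 members tested (rows), with exact 95% conditional intervals. Rows without a point had under 100 UMIs. Immature inhibitory neuron-like cells lie at 0.541 for Ccna2 and 0.513 for Ccnb1, and cluster 8 at 1.52 for Ccne1.

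Other regulators of these complexes were looked at in positioned cells as a list of 48 genes, chosen with earlier results of these data known. It holds the kinases that activate or inhibit CDKs, CDK inhibitors, cyclin destruction factors, mitotic entry kinases, checkpoint kinases, transcription factors of the cyclins and other cyclins. Of 46 with at least 100 UMIs, 25 were above 0 and 21 below, with a median log2 difference of 0.011. Those past the fold limits were 3 of 46, beside 19.5% of all genes. Skp2 was lower, as given above. Mastl, the kinase that holds back the phosphatase opposing Cdk1, was lower at 13.1 CPM in DKO_Skp2het and 16.8 CPM in DKO (0.776, 0.654 to 0.920). Ccna1, a cyclin of the germ line, was past the upper limit at 3.44 CPM in DKO_Skp2het and 2.66 CPM in DKO with an interval that includes 1 (1.30, 0.881 to 1.91), and is named because of its value. Skp2 was highest in bin 4 and Mastl in bin 5 of both libraries. Cks1b, Cks2, Cdc20 and Aurka of this list also belong to the G2M list.

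Genes of like profile were ranked by Pearson r of log2 levels over 14 points, the low bin and 6 bins of each library, among 8879 genes with at least 500 UMIs outside the lists. All points share libraries and depth, so r is a description. Ccne1 was most like Wbp5 (r = 0.989), Ccne2 most like Atad5 (0.992), Cdk2 most like Abracl (0.994) and Cdc25a most like Cdv3 (0.988). Ccna2 was most like Plk4 (0.995), a kinase of centriole duplication, Cdk1 most like Tubb6 (0.993), and Cdc25b most like Pnrc2 (0.993). Ccnb1 was most like Pttg1 (0.994), the separase inhibitor securin, Ccnb2 most like Aspm (0.994), a spindle pole protein, and Cdc25c most like Fam83d (0.993). Behind these came Nrm and 2700029M09Rik for Ccne1, Pgp and Mcm7 for Ccne2, Sumo2 and Dnaaf2 for Cdk2, and Zfp367 and Fam111a for Cdc25a. For the late genes these were Shcbp1 and Mad2l1 for Ccna2, Hmgb1 and Spc25 for Cdk1, Aspm and Knstrn for Ccnb1, Ubald2 and Pttg1 for Ccnb2, Nup37 and Vrk3 for Cdc25b, and Gm3550 and Tuba1c for Cdc25c. Among the members themselves, Ccne1 and Ccne2 had r = 0.985, Ccne1 and Cdk2 0.971, Ccna2 and Cdk1 0.967, and Ccne1 and Ccnb1 -0.11.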

How the data were processed

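The authors deposited raw UMI counts per gene and barcode for both libraries; Cell Ranger 2.2.0 and mm10 appear in the submitters' processing notes, and the barcode filter is not given in the sources used here. Libraries were grouped by genotype label. Cells needed 500 or more detected genes and no more than 20% mitochondrial UMIs. Doublets were scored against 2 simulated doublets per cell and the top 0.8% per 1000 barcodes removed (216 in DKO_Skp2het, 105 in DKO). Clusters came from 2000 variable genes, 30 components and leidenalg 0.10.2 at resolution 1.0, with numpy 2.4.6 and scipy 1.17.1. A cluster was named where a type's markers averaged a log2 fold of at least 1.0, at least 3 were above 2-fold, and they outnumbered other types' among its 10 leading genes. Members, lists and limits were chosen with earlier results of these data known. Named genes are the 10 members, Skp2, pathway genes past the fold limits with an interval excluding 1, and the 3 genes most like each member. Outside this rule, and with values seen, Ccna1, genes shared with the G2M list, genes checking the axis and leading genes of clusters are named. Of 27998 identifiers, 27722 matched GENCODE M21. The ratios, intervals, peak bins and mean positions were tested on simulated counts with independent counting error. The positions of the cells were taken as given, so the placing of cells was not tested.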

Additional observations from a re-analysis of the deposited data

How the results depend on the processing

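No paired analysis was possible because each genotype has 1 library. The median log2 difference of the 10 genes over all kept cells was -0.028, and it was -0.23 with every cell thinned to 1500 UMIs and 0.086 with cells of at least 3420 UMIs only. Over positioned cells it was 0.058, and it was -0.19 and 0.18 under these settings. The depth floor keeps 3080 DKO_Skp2het and 3515 DKO cells, and thinning gives every cell the same weight. Ccne1 kept its direction under all alternatives in both populations (log2 0.19 to 0.39). Its lowest value, 0.19 with thinned counts over all kept cells, had counting limits of -0.026 to 0.40, which include 0. The ratio of positioned shares, 0.945, ran from 0.928 to 0.964. Its interval, made for ratios of counts and too wide for shares of cells, reached past 1 with at least 5 list UMIs or position from all UMIs. No binomial interval was computed there, so this does not show whether the difference is lost under those settings. Peak bins were shared by 7 to 9 of 10 genes under every alternative for the order, and the 4 early genes lay before the other 6 in both libraries throughout. With position as an angle, 4 of the 6 late genes were highest in the last bin. The median over bins ran from 0.026 to 0.14 (0.076 as reported). The Müller glia-like median ran from -0.032 to -0.023, and no such class was named at resolution 0.5 or with cell cycle genes in the clustering. Immature inhibitory neuron-like medians ran from -0.45 to -0.25, over 5 to 10 tested members. In bins 1 and 2 the late genes rest on few UMIs, and depth limits those ratios.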

Other observations

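Cluster 11, which has no name and is led by Txnip and Myc, held 131 DKO_Skp2het and 130 DKO cells. Ccna2 had 1314 CPM in DKO_Skp2het and 1033 CPM in DKO (ratio 1.27, 95% interval 1.18 to 1.37), Ccnb1 307 and 219 CPM (1.40, 1.19 to 1.65) and Ccne1 189 and 144 CPM (1.32, 1.08 to 1.61). In its late-position cells, 29 and 33 in number, Ccna2 stood at 1.61 (1.38 to 1.87), Ccnb1 at 1.76 (1.32 to 2.34) and Ccne1 at 1.66 (1.10 to 2.50). Ccne2 stood at 512 and 519 CPM (0.986, 0.879 to 1.11). Of the 9 members tested 4 were more than 25% higher, against 11.3% of the genes tested in the cluster, and the median depths were 6243 and 7452 UMIs.

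With 10 bins in place of 6, Ccnb1 had 469 CPM (438 to 502) in the ninth bin of DKO_Skp2het and 305 CPM (283 to 329) in that of DKO, and 850 and 848 CPM in the last bin. The last step was therefore 1.81-fold (1.67 to 1.97) in DKO_Skp2het and 2.78-fold (2.54 to 3.04) in DKO. Ccnb2 had 341 and 245 CPM in the ninth bin and 491 and 432 CPM in the last.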
